A study of Mus musculus with 24 samples.

Results

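The genes described here are a set of 43 mouse nuclear receptor genes, from the retinoic acid and vitamin D receptors to the orphan receptors. A differentially 5-hydroxymethylated region (DhMR) was tied to a receptor gene when it lay inside the gene, lay within 20 kb of it, or carried its identifier as the nearest gene in the deposited lists. By this rule 106 of the 20726 listed DhMRs belonged to 27 of the 43 genes. The data came from 5hmC-DIP sequencing, in which an antibody recovers DNA fragments that carry 5-hydroxymethylcytosine (5hmC). The cells were mouse embryonic stem cells (ESCs) of mixed C57BL/6J-129V background, kept in 2i medium with LIF, that lack their own Tet1, Tet2 and Tet3. Both lines carried human Tet3 from a lentivirus: Wt25 the wild-type protein, and AA10 the phosphor-mutant in which both phosphorylated serines of the catalytic domain are changed to alanine. Each line was a single puromycin-resistant clone with a similar level of Tet3, so the mutation and the clone cannot be told apart.

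There were 3 libraries of each line, and the authors compared the lines over all of them, in bins of 200 bp. The deposited positions form 2 lists, 12096 DhMRs with more 5hmC in Wt25 and 8630 with more in AA10, and 0 DhMRs were in both. Neither a read number nor a fold change or P-value accompanies the positions in these lists, so they do not give the depth or the replicate spread behind a single DhMR, and no test was made. Counts are given as descriptions. Intervals are 95% Wilson intervals and cover counting error only; neighbouring DhMRs are not independent, so these intervals are too narrow.

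Nuclear receptors are transcription factors that carry a DNA-binding domain of zinc fingers and, in most of them, a pocket for a small lipophilic ligand such as retinoic acid, a steroid or a bile acid. Many bind the half-site AGGTCA, alone or as a pair with the retinoid X receptor. In ESCs, retinoic acid and its receptors are known for starting neural differentiation, while several orphan receptors take part in the pluripotency network. Tet proteins oxidise 5-methylcytosine to 5hmC, mostly at CpG sites.

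The DhMRs below were chosen for a position near a receptor gene's start or for many CpGs, in each direction, among those in introns and flanks that touch no UTR. They are given 5′ to 3′ on the plus strand of GRCm38.p6, with the CpGs in capitals. The one at Rarg (chr15:102250003-102250200) lay in intron 3, was higher in Wt25 and was among the CpG-richest of the Wt25 DhMRs considered, with 9. Of the Wt25 DhMRs in introns of receptor genes, it was the nearest to a start by the GENCODE basic transcripts. A Wt25 DhMR upstream of Nr2f6 lay nearer a start, as did intronic ones of Rara by RefSeq starts. The one at Ppard (chr17:28224003-28224200) lay 8.50 kb upstream of the gene, in a coding exon of Def6, and was higher in Wt25, also with 9 CpGs. The one at Esr2 (chr12:76167003-76167200), 0.614 kb downstream of a start inside the gene, was higher in AA10. The one at Nr2e1 (chr10:42601603-42601800), 17.97 kb upstream of the gene, was higher in AA10 and held 9 CpGs. The AA10 DhMR upstream of Esrra held more, 16, and was not among those considered.
Rarg: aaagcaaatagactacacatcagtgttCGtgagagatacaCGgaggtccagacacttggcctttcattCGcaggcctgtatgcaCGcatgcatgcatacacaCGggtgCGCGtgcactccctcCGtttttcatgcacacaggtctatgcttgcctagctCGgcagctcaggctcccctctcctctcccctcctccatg
Ppard: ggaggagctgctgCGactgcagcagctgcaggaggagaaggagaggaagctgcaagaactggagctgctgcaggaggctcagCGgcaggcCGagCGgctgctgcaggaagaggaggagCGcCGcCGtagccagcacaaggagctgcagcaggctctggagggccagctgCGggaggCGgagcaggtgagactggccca
Esr2: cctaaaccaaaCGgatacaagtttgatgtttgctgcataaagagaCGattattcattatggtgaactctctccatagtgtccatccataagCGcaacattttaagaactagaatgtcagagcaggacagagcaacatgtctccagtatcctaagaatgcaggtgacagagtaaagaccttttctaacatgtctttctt
Nr2e1: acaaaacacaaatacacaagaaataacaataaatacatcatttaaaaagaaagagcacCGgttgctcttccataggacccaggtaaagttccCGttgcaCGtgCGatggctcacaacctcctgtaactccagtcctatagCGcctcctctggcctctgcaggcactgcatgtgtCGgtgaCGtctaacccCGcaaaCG

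The next sequence, from a DhMR higher in Wt25, was chosen after its values had been seen, because it puts a receptor half-site inside a retinoic acid receptor gene. It lay in an intron of the long form of Rarb (chr14:16782603-16782800). The half-site AGGTCA is in capitals.
Rarb: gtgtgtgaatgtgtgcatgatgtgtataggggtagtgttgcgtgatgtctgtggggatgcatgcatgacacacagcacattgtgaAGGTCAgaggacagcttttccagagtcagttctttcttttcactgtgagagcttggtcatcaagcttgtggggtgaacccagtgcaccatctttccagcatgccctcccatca

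Inside the receptor genes the DhMRs were mostly higher in Wt25. Of 35 DhMRs that overlapped a receptor gene, 30 were higher in Wt25 and 5 in AA10, a Wt25 share of 85.7% (interval 70.6 to 93.7%). Of the 30, 8 lay in Esr1 and 6 in Rara. Without these genes, left out after the data had been seen, the counts were 16 and 5 (76.2%, interval not given here). The Wt25 share over the 10733 DhMRs inside any protein-coding gene was 60.9%, or 63.8% without chromosome 6, a chromosome with 1000 AA10 and 136 Wt25 DhMRs. No DhMR was tied to a receptor gene of chromosome 6, Pparg and Nr2c2. For 10 of the 35 the nearest start belonged to another gene, and over all 106 the lists named another gene for 17 and none for 4. Outside the genes the Wt25 share was lower. Of 22 DhMRs within 20 kb of a receptor gene but not inside, 11 were higher in each line, against a Wt25 share of 56.4% for protein-coding genes. Of the 11 AA10 ones, 7 belonged to Nr0b2. Without Nr0b2 the counts there were 10 in Wt25 and 4 in AA10, a Wt25 share of 71.4% (interval 45.4 to 88.3%). Of 49 DhMRs beyond 20 kb that were tied by the nearest-gene identifier, 10 were higher in Wt25 and 39 in AA10, a Wt25 share of 20.4% (interval 11.5 to 33.6%), against 55.6% for protein-coding genes.

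**Figure D1:**
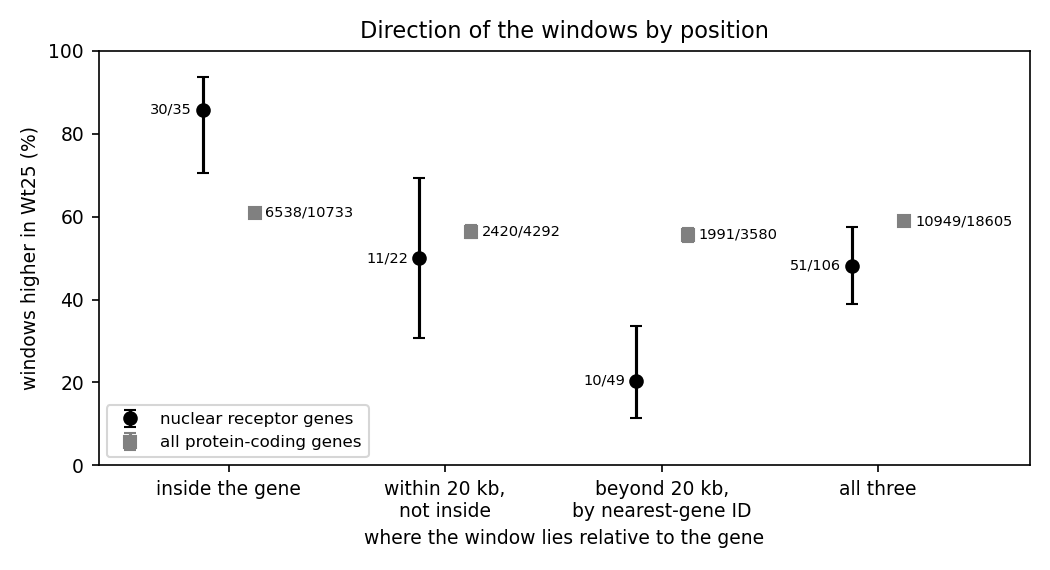
Percent of DhMRs higher in Wt25 (vertical axis) by position relative to the gene (horizontal axis), for nuclear receptor genes (black circles) and all protein-coding genes (grey squares), with 95% Wilson intervals and the counts beside each point. For the receptor genes the share went from 30 of 35 inside to 10 of 49 beyond 20 kb, while for all genes it stayed between 55.6% and 60.9%.

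Together the 3 classes gave 51 Wt25 and 55 AA10 DhMRs, a Wt25 share of 48.1% (interval 38.8 to 57.5%), against 58.8% for the 18605 DhMRs tied to any protein-coding gene and 58.4% for all listed DhMRs. The single gene Hnf4g held 26 of the 55 AA10 DhMRs. Without Hnf4g the counts were 46 and 29, a Wt25 share of 61.3% (interval 50.0 to 71.5%). Beyond 20 kb, Hnf4g and Nr2f1 held 34 of the 39 AA10 DhMRs, and without these genes 5 DhMRs were higher in each line. The AA10 majority far from the genes thus rested on these genes.

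By gene, 22 of 43 receptor genes had a Wt25 DhMR by the full rule and 12 had an AA10 DhMR. The shares over 21938 protein-coding genes were 29.3% for Wt25, 21.8% for AA10 and 44.2% for either direction, where 27 receptor genes made 62.8% (interval 47.9 to 75.6%). With DhMRs of 1 direction only, 15 receptor genes (34.9%) had Wt25, against 22.4% of protein-coding genes, and 5 (11.6%) had AA10, against 14.9%. Both directions were present at 7 (16.3%, interval 8.12 to 30.0%), against 6.91%. A DhMR inside the gene was present in 15 of 43 receptor genes, against 21.3% of protein-coding genes. A Wt25 DhMR lay inside 14 receptor genes (32.6%, interval 20.5 to 47.5%), against 13.4% of protein-coding genes. An AA10 DhMR lay inside 2 receptor genes (4.65%, interval 1.28 to 15.5%), against 10.1% of protein-coding genes, a share inside that interval.

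The receptor genes were long, with a median span of 47.1 kb against 17.4 kb for protein-coding genes. Among genes of 20 to 100 kb, 8 of 20 receptor genes had a Wt25 DhMR inside (40%, interval 21.9 to 61.3%), against 18.3% of 7667 protein-coding genes. Among genes of 100 kb or more, 5 of 11 receptor genes had a Wt25 DhMR inside (interval 21.3 to 72.0%), against 35.1% of 2492 protein-coding genes, so the difference there was within counting error. An AA10 DhMR lay inside 1 of 20 and 1 of 11 receptor genes of these lengths, against 13.3% and 30.1% of protein-coding genes, both within the intervals. Per 100 kb of gene, the receptor genes held 0.652 Wt25 and 0.105 AA10 DhMRs, and protein-coding genes 0.646 and 0.404, or 0.681 and 0.375 without chromosome 6, with a DhMR of overlapping genes counted for each of them. Counted once, the receptor genes held 0.631 Wt25 DhMRs. The Wt25 density was thus near that of all genes, while the AA10 density was lower.

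**Figure D2:**
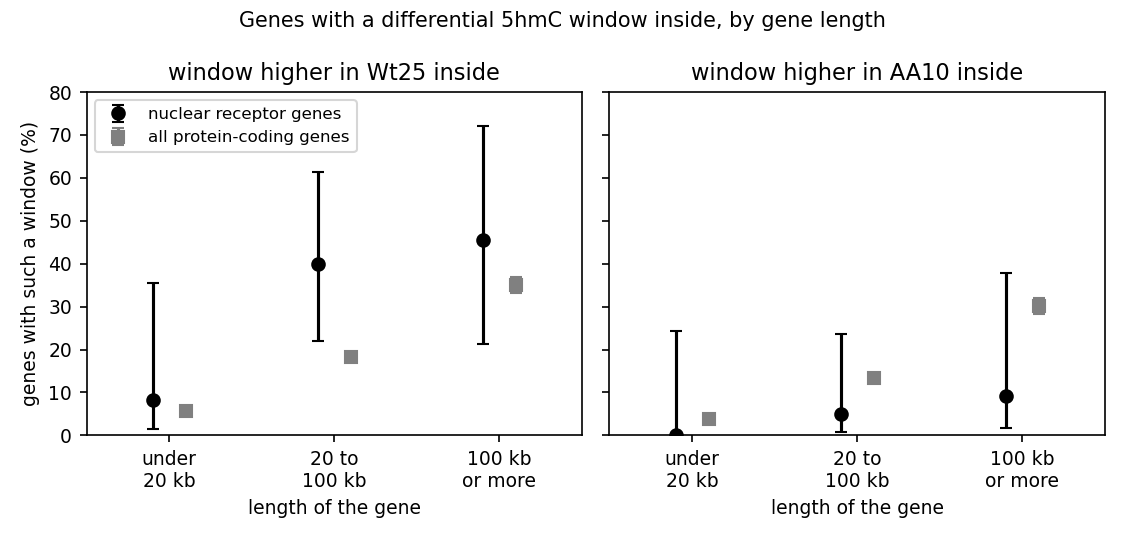
Percent of genes with a DhMR inside (vertical axis) by gene length (horizontal axis), for Wt25 (left panel) and AA10 (right panel), with 95% Wilson intervals. Among genes of 20 to 100 kb, the 8 of 20 receptor genes with a Wt25 DhMR stood above the 18.3% of all protein-coding genes, and in the other classes the interval of the receptor genes held the value of all genes.

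At the retinoid receptor genes nearly all DhMRs were higher in Wt25. Retinoic acid receptors (Rara, Rarb, Rarg) bind retinoic acid, and retinoid X receptors (Rxra, Rxrb, Rxrg) are the partners of many other receptors. Of 18 DhMRs at 4 of these 6 genes, 17 were higher in Wt25, and all 12 inside the genes were. The DhMR higher in AA10 lay 12.3 kb upstream of Rarg and carried the identifier of Mfsd5. Rxrb and Rxrg had no DhMR.

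At Rara (chr11:98927818-98974942, plus strand) all 6 DhMRs lay inside the gene and were higher in Wt25. The first, 5.19 kb downstream of a start, was in intron 1. The second (chr11:98961003-98961200), with 7 CpGs, lay 0.689 kb downstream of an internal start, where a shorter form of the gene has a coding exon. The remaining 4 lay between 4.09 and 5.29 kb downstream of that start, in intron 2, 3 of them side by side. RefSeq has further starts there, and by that annotation these 3 lay 0.321 and 0.121 kb before and 0.018 kb past a start of Rara. These 6 DhMRs formed 4 regions when touching bins were joined. Within 1 Mb of Rara the other DhMRs were 29 higher in Wt25 and 13 higher in AA10, so the direction at the gene was also the more frequent one around it.

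Rarb, itself a known target of retinoic acid, had 5 DhMRs, all higher in Wt25. The DhMR chr14:16575003-16575200, with 8 CpGs, lay in the 5′ UTR of exon 1 of the longest coding transcript, 0.442 kb from the start. Another lay inside the GENCODE gene (chr14:16430839-16819156, minus strand) but outside its basic transcripts, 207 kb upstream of that start. The remaining 3 lay 81.8, 82.0 and 267 kb upstream of the gene. RefSeq extends Rarb to chr14:17082331, and by that annotation 4 of the 5 lay in the gene and the last 4.07 kb upstream of it. All 7 other DhMRs within 1 Mb of Rarb were higher in Wt25 too.

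Rarg (chr15:102234938-102257517, minus strand) had 3 Wt25 DhMRs that overlapped the gene and the AA10 DhMR upstream. The DhMR chr15:102236003-102236200, with 7 CpGs, lay in coding sequence of exon 10, the last. A neighbour, chr15:102234803-102235000, overlapped the end of the gene by 63 bases. Both carried the identifier of Itgb7 in the lists, the gene whose start is nearer. The third, with 9 CpGs, is the intron 3 sequence printed above. Unlike at Rara and Rarb, the other DhMRs within 1 Mb of Rarg were 8 higher in Wt25 and 12 higher in AA10.

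Rxra had 3 DhMRs, all higher in Wt25. The DhMR chr2:27746403-27746600 lay in intron 4, 35.9 kb downstream of the nearest start. The other two lay 61.4 and 64.2 kb upstream of the gene and had Rxra as their nearest start. Around Rxra, 13 of 14 other DhMRs within 1 Mb were higher in Wt25.

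**Figure D3:**
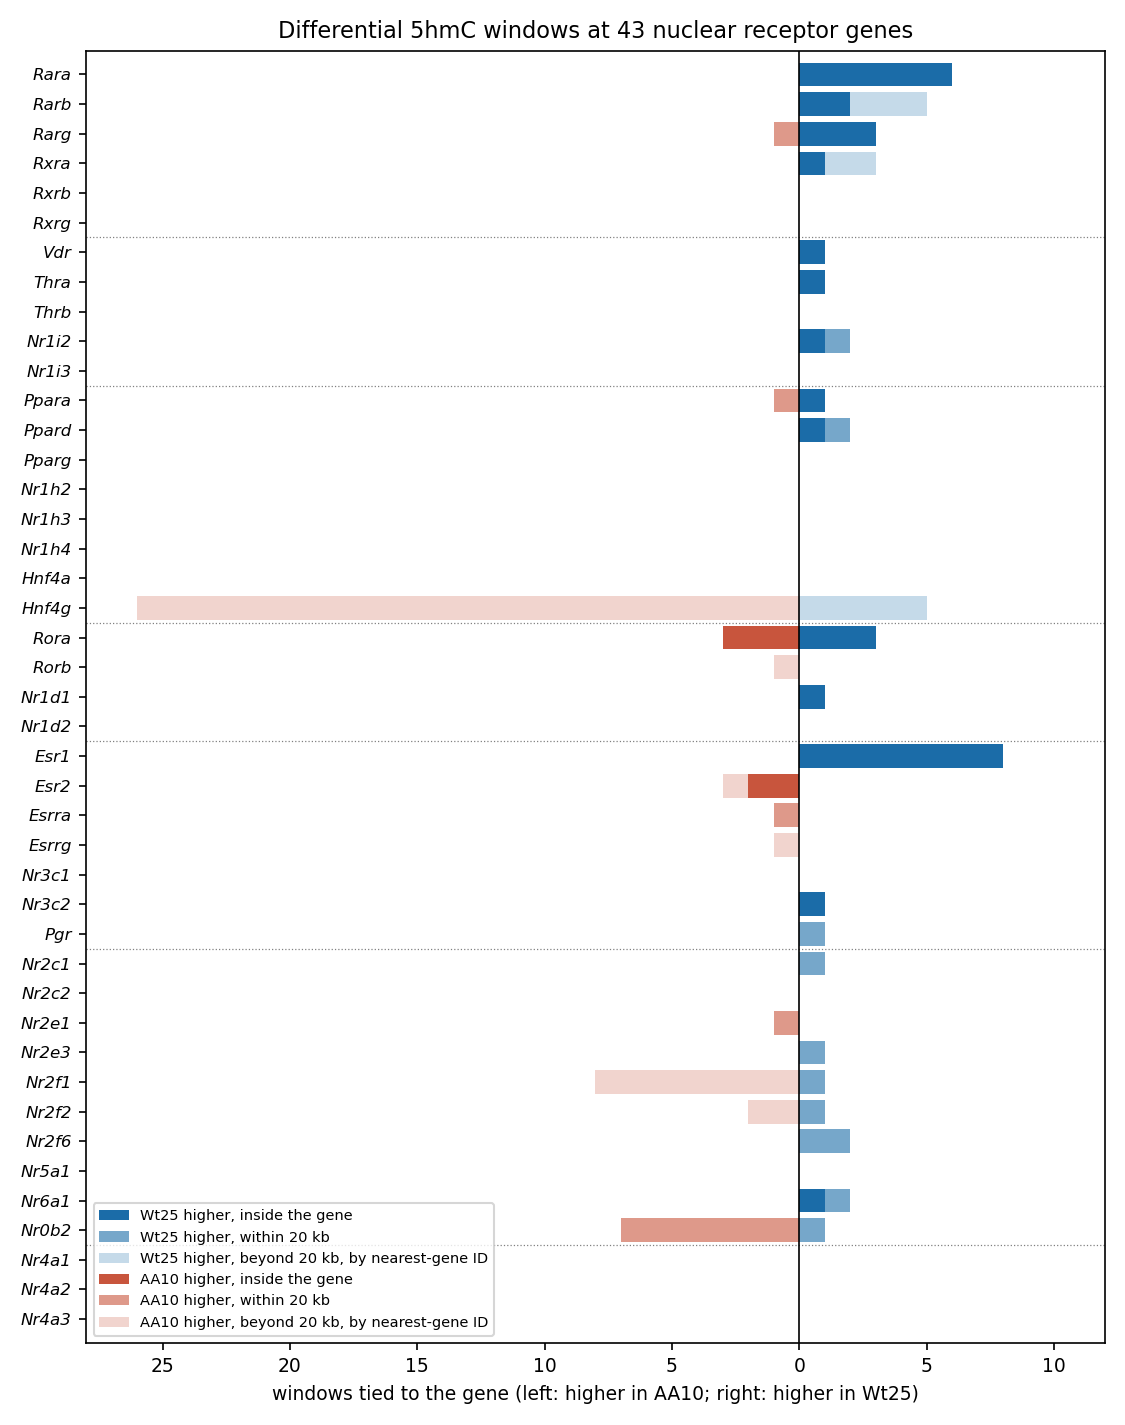
Number of DhMRs (horizontal axis) at each of the 43 receptor genes (vertical axis, grouped by role with dotted lines), to the right for Wt25 and to the left for AA10, shaded by position. Dark bars, inside the gene, stand almost only on the right, with Rora (3) and Esr2 (2) on the left, and the longest bar on the left is the pale one of Hnf4g (26 AA10 DhMRs beyond 20 kb).

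The receptors of vitamin D, thyroid hormone and xenobiotics had 4 DhMRs at 3 of 5 genes counted in this group, all higher in Wt25. Vdr, the vitamin D receptor, had a DhMR with 4 CpGs in intron 7 (chr15:97864203-97864400), 44.0 kb from its own start and listed under Hdac7. Thra, a thyroid hormone receptor, had a DhMR in the 3′ UTR of its last exon, which also lies in intron 7 of Nr1d1, the clock gene on the opposite strand. Because the assay has no strand, the 2 genes share this DhMR. Nr1i2, the pregnane X receptor of drug metabolism, had a DhMR with 6 CpGs in intron 1 and another 18.9 kb downstream, in an intron of Gsk3b. Thrb, with a span of 378 kb the longest of the receptor genes without a DhMR, and Nr1i3, a xenobiotic receptor of the liver, had none.

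The lipid and bile acid receptors had 35 DhMRs, of which 8 were higher in Wt25 and 27 in AA10, and 31 of the 35 belonged to Hnf4g. Of the peroxisome proliferator-activated receptors, which regulate fatty acid use, Ppara had a Wt25 DhMR in the 3′ UTR of exon 8 and an AA10 DhMR 19.8 kb downstream. Ppard had a Wt25 DhMR in intron 3 and the upstream one printed above. Pparg, the liver X receptors Nr1h2 and Nr1h3, the bile acid receptor Nr1h4 and Hnf4a had none.

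Hnf4g, a relative of Hnf4a found in the intestine, had 31 DhMRs, the most of any receptor gene, and none inside the gene (chr3:3508030-3658052) or within 20 kb of it. The 26 higher in AA10 lay 360 to 448 kb upstream. All but 1 of them, 25 DhMRs, were packed into 44.6 kb (chr3:3103003-3147600), with 1 to 5 CpGs each. The first of the 26 started 59.6 kb from the first known base of chromosome 3, and all 26 were tied to Hnf4g by the nearest-gene identifier alone. The 5 higher in Wt25 lay 25.0 to 26.2 kb downstream, within 1.40 kb. These 5 were on average 82.8% marked as repeats, and in 3 of them at least 50% of the 32-base stretches occurred elsewhere in the genome. At least 50% of the stretches were copied in 2 of the 26 AA10 DhMRs. Most of the other AA10 DhMRs held smaller shares, up to 48.5%, whereas 59 of all 106 DhMRs held no copied stretch. The part of copied sequence in these calls was not tested.

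The clock receptors had 8 DhMRs at 3 of 4 genes. Rora, a RAR-related orphan receptor that activates clock genes, was the only receptor gene with DhMRs of both directions inside, 3 higher in Wt25 and 3 higher in AA10, over its 734 kb. Along the gene, 5 of these 6 lay in intron 1 and the 6th, higher in AA10, in intron 2. From the start of the gene the order was AA10, Wt25, AA10, Wt25, Wt25 and AA10. Rorb had an AA10 DhMR 494 kb upstream and no other DhMR within 1 Mb. Nr1d1, a repressor of the clock, had the DhMR shared with Thra, and Nr1d2 had none.

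Among the steroid and steroid-like receptors the estrogen receptor genes went opposite ways. Esr1, estrogen receptor alpha, had 8 DhMRs, all inside the gene (chr10:4611593-5005614, plus strand) and all higher in Wt25, the most inside any receptor gene. Of these, 5 lay in intron 1 within 10.6 kb, 5.28 to 15.7 kb downstream of a start, 1 lay in the coding sequence of exon 4 with 7 CpGs (chr10:4746603-4746800), and a touching pair lay in intron 6. Esr2, estrogen receptor beta, had 3 DhMRs, all higher in AA10: in intron 2, in intron 4 and 47.0 kb downstream, the last in an intron of Syne2. Within 1 Mb of Esr1 the other DhMRs were 7 higher in Wt25 and 5 higher in AA10, and around Esr2 they were 16 and 11. The direction at Esr2 was thus the less frequent one around it.

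The estrogen-related receptor genes counted here, Esrra and Esrrg, had AA10 DhMRs only, none of them inside the gene. Esrra, a regulator of mitochondrial genes, had one 4.19 kb upstream (chr19:6926003-6926200), in a coding exon of Kcnk4, with 16 CpGs in 198 bases, the most of any of the 106. Esrrg had 1 DhMR, 158 kb upstream. Nr3c2, the mineralocorticoid receptor, had a Wt25 DhMR in intron 2, and Pgr, the progesterone receptor, had a Wt25 DhMR 3.39 kb downstream. Nr3c1, the glucocorticoid receptor, had none.

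**Figure D4:**
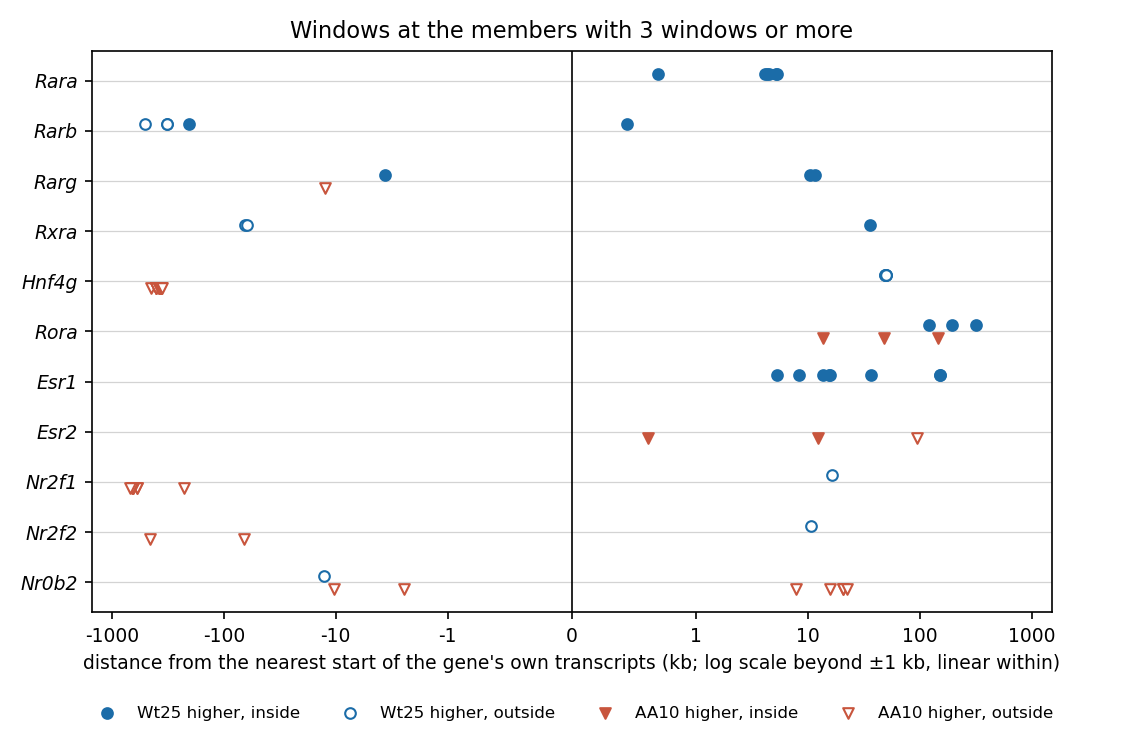
Position of each DhMR (horizontal axis, kb from the nearest start of the gene's own GENCODE basic transcripts, negative upstream, log scale beyond 1 kb) at the 11 receptor genes with 3 DhMRs or more (rows). Circles are higher in Wt25 and triangles in AA10, and filled symbols lie inside the gene. Filled circles stand at Rara, Rarb, Rarg, Rxra, Rora and Esr1, and the open triangles of Hnf4g and Nr2f1 stand between 228 and 691 kb upstream.

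The group of orphan receptors of development, in which Nr0b2 was counted, had 27 DhMRs at 8 of 10 genes. Of these, 9 were higher in Wt25 and 18 in AA10, and Nr0b2 held 1 and 7 of them. Only 1 of the 27 lay inside a gene. That one was a Wt25 DhMR in intron 3 of Nr6a1, the germ cell nuclear factor, in sequence that was 95.5% marked as repeats and had copies elsewhere. Nr6a1 also had a Wt25 DhMR 9.52 kb upstream. Nr2f1, a COUP transcription factor of the developing brain, had 8 AA10 DhMRs upstream, at 228 kb, 603 kb (a touching pair) and 648 to 690 kb, and a Wt25 DhMR 8.77 kb downstream. Beside these 9, no DhMR lay within 1 Mb of Nr2f1. Nr2f2, also a COUP factor, had AA10 DhMRs 66.5 and 456 kb upstream and a Wt25 DhMR 1.94 kb downstream. The 6 other DhMRs within 1 Mb of Nr2f2 were all higher in Wt25, the nearest of them 27.9 and 28.1 kb downstream.

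Nr0b2, a small partner that represses other receptors and lacks a DNA-binding domain, had 1 Wt25 and 7 AA10 DhMRs in its flanks. The 7 lay from 10.2 kb upstream to 19.1 kb downstream of the gene (chr4:133553376-133556536). A further 6 AA10 DhMRs and 0 Wt25 DhMRs lay between 20 and 50 kb from the gene. In the 1 Mb on either side, these included, the other DhMRs were 140 higher in Wt25 and 10 higher in AA10, so the direction at Nr0b2 was that of its close surroundings and not that of the wider region. They carried the identifiers of Nudc, Nr0b2 and Gpatch3, and 2 of the 7 had Nr0b2. Of the others, Nr2f6 had Wt25 DhMRs 3.04 and 14.0 kb upstream, Nr2c1 had 1 Wt25 DhMR 13.6 kb downstream, Nr2e3 had 1 Wt25 DhMR 6.57 kb downstream, and Nr2e1 had 1 AA10 DhMR 17.97 kb upstream. Nr2c2 and Nr5a1 had none. The early response receptors Nr4a1, Nr4a2 and Nr4a3, which cells induce within minutes of a stimulus and which need no ligand, had none.

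The receptor genes without a DhMR were not only short ones. The 16 genes spanned 4.34 to 378 kb, with a median of 38.2 kb, and the 27 with a DhMR spanned 3.16 to 734 kb, with a median of 56.2 kb. Near the 20 kb limit, the DhMRs just inside it were those of Nr0b2 at 19.1 kb and of Ppara at 19.8 kb, both higher in AA10, and those just outside were of Nr2f6 at 20.9 kb and of Nr1d1 at 21.7 kb, both higher in Wt25.

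By the GENCODE basic starts, no DhMR lay in a receptor gene's promoter, which reaches here from 1 kb before a start to 100 bp past it. This was 0 of 106 (interval 0 to 3.50%), against 3.17% of the DhMRs tied to protein-coding genes, a share inside that interval. Of the 35 inside receptor genes it was 0 (interval 0 to 9.89%), against 2.11% inside protein-coding genes. By RefSeq starts, 3 of the 106 lay in a promoter, the side-by-side DhMRs of Rara. The share over all protein-coding genes by RefSeq starts is not given here. Of the 35 inside receptor genes, 28 lay in introns (80%, interval 64.1 to 90.0%), 3 in coding exons, 1 in a 5′ UTR and 2 in 3′ UTRs, and for 1 the midpoint lay past the end of the gene. Over all protein-coding genes 86.97% of the DhMRs inside lay in introns and 6.00% in coding exons. All 5 AA10 DhMRs inside receptor genes were intronic. From a start of the gene they were tied to, Wt25 DhMRs lay at a median of 20.9 kb and AA10 DhMRs at 369 kb. Without Hnf4g the medians were 15.6 kb for Wt25 and 66.6 kb for AA10. The latter still includes the 8 AA10 DhMRs far upstream of Nr2f1. No such median is given here for all protein-coding genes.

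Every DhMR at the receptor genes held at least 1 CpG. The Wt25 DhMRs held 3.33 ± 2.29 CpGs (SD over 51 DhMRs) and the AA10 DhMRs 2.75 ± 2.47 (SD over 55). The means over all listed DhMRs were 3.25 in Wt25 and 3.16 in AA10. Without Hnf4g the AA10 DhMRs held 3.24 CpGs. The DhMRs inside receptor genes were 19.7% marked as repeats, and 1 of these 35 had copies for at least 50% of its 32-base stretches. All listed DhMRs, which include those outside genes, were 31.9% marked as repeats. The share for DhMRs inside all protein-coding genes is not given here.

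The share of DhMRs with a receptor half-site differed from that of all listed DhMRs by less than counting error. The half-site AGGTCA, or TGACCT on the other strand, was present in 12 of 106 DhMRs (11.3%, interval 6.60 to 18.8%), against 12.1% of all listed DhMRs. At the retinoid receptor genes 5 of 18 held it (27.8%, interval 12.5 to 50.9%): in Rara, in Rarb, in 2 of Rarg and in the AA10 DhMR upstream of Rarg. No DhMR at a receptor gene held a pair of half-sites with 0 to 8 bases between them, direct, inverted or everted, and over all listed DhMRs such a pair was present in 36, or 0.174%.

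The study drew motifs of RARB, RARG and VDR from its DhMRs. It listed RARB for regions higher in Wt25 and RARG for regions higher in AA10. As read from those logos, RARB is CCGGCCTC, CCGGCTTC, CTGGCCTC or CTGGCTTC, RARG is GAGTTCAA or GAGTTCTA and VDR is CTGAGTTC or CTGGGTTC, on either strand. At the receptor genes RARB matched 12 DhMRs (11.3%, interval 6.60 to 18.8%), RARG 2 (1.89%, interval 0.519 to 6.62%) and VDR 8 (7.55%, interval 3.87 to 14.2%). Over all listed DhMRs the shares were 7.77%, 4.13% and 6.52%, each inside the matching interval. By direction, RARB matched 5 of 51 Wt25 and 7 of 55 AA10 DhMRs at the receptor genes, against 8.37% and 6.93% of all listed. RARG matched 0 Wt25 and 2 AA10 DhMRs, against 4.01% and 4.30%. Any of the 3 matched 17 of 106 (16.0%), against 14.5%. Both RARG matches lay in repeat marks, as did 7 of 14 RARB and 4 of 8 VDR matches. Over all listed DhMRs 78.6% of RARG, 59.0% of RARB and 73.6% of VDR matches lay in repeat marks. Within the retinoid receptor genes, RARB matched in 2 DhMRs of Rara and VDR in 1 of Rarb, and the DhMR of Vdr matched none of the 3. A match gives letters in a window and does not show that a receptor binds there.

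The other genes of the pathway were counted by the same rule. Of 18 genes that carry, make or break down retinoids and vitamin D, 7 had a DhMR, 5 in the Wt25 and 4 in the AA10 direction, with 12 Wt25 and 3 AA10 DhMRs in all. The shares over all protein-coding genes, 44.2%, 29.3% and 21.8%, would give about as many. Cyp27b1, which makes the active form of vitamin D, had 4 Wt25 DhMRs, 2 of them inside the gene, Aldh1a3, which makes retinoic acid, had 3 Wt25 DhMRs, and Cyp26a1, which breaks retinoic acid down, had 2 Wt25 and 1 AA10. Of 20 receptor coactivators and corepressors, 11 had a DhMR, all 11 in the Wt25 and 6 of them also in the AA10 direction, beside the same 44.2%, 29.3% and 21.8%. Inside these 20 genes 52 DhMRs were higher in Wt25 and 3 in AA10, against a Wt25 share of 60.9% inside protein-coding genes. The corepressor Ncor1 held 27 of the 52, and the coactivator Ncoa2 held 5. The 40 AA10 DhMRs tied to Tbl1xr1, a subunit of the corepressor complex, lay outside it, where 4 Wt25 DhMRs lay inside.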

How the data were processed

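5hmC-DIP was sequenced from 3 libraries of Wt25 and 3 of AA10. Per the study's methods and the deposited lists, the authors used STAR for unique alignment to GRCm38 and Picard to drop duplicates, then MEDIPS to compare Wt25 with AA10 in 200 bp bins over all replicates (P under 0.05, fold change of at least 1), removed bins over IgG-DIP peaks, simple tandem repeats and low complexity sequence, and named the nearest gene with HOMER. Tool versions are not given in the sources used here. The lists give 198 bases of each bin. Starts were read as counted from 0, so a printed position may be off by 1 base.

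Genes came from GENCODE vM21 basic, with RefSeq spans as an alternative, and sequences and repeat marks from the GRCm38.p6 reference. The feature of a DhMR is where its midpoint falls in the receptor gene's own transcripts, promoters first. Exon and intron numbers follow the longest coding transcript. Each DhMR was counted once in counts over the family, and for each gene in counts per gene, per role and per 100 kb where genes overlap. The comparison set was all protein-coding genes by the same rule. For copies, all 32-base stretches of a DhMR were searched on both strands of the genome. The functions gave the known answer in all 16 checks on made-up genes. Python 3.11.15, numpy 2.4.6, scipy 1.17.1 and matplotlib 3.10.9 were used.

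Every receptor gene is accounted for by name, and those with 3 or more DhMRs with positions. The genes, the lists and these rules were chosen with earlier results of these data known. RNA-seq, H3K27ac and input libraries were not analysed here.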

Additional observations from a re-analysis of the deposited data

How the results depend on the processing

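The result that depended most on the rule was direction. With DhMRs inside the gene only, 30 were higher in Wt25 and 5 in AA10 (85.7% Wt25), in 15 genes, with 80% in introns and 1.77 CpGs per 100 bp, against 51, 55, 48.1%, 27 genes, 26.4% and 1.53 by the full rule. With only DhMRs whose nearest start of any gene belonged to a receptor gene, the values were 29, 5, 85.3%, 13 genes and 61.8%. Without Hnf4g, 29 were higher in AA10, the Wt25 share was 61.3% and 37.3% lay in introns. Outside repeat marks, 9.43% held a RARB, RARG or VDR motif, against 16.0%. Inside the gene, as chosen after the data had been seen, the counts were 16 and 5 (76.2%) without Esr1 and Rara, 24 and 5 (82.8%) with DhMRs within 1 kb joined, and 32 and 5 (86.5%) in 15 genes with RefSeq spans. These shifts follow from the DhMRs each rule keeps. The other 56 of the 81 alternative values stayed within 1.5 times the count or within the interval of the share or mean. A flank of 5 or 50 kb, the identifier alone, RefSeq spans and joined DhMRs moved none of the values computed for them beyond these limits. Leaving out chromosome 6 could not change any value, because no DhMR was tied to Pparg or Nr2c2. Its values are among the 56 and say nothing about stability.

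No paired analysis was possible because the lists pool the replicates and hold no value per library. For the same reason no replicate was left out and no stricter threshold was set. The lists show where the lines were called different, not how much 5hmC a receptor gene carries, and a receptor gene without a DhMR is one where no bin passed the authors' threshold and filters.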
